A study of Homo sapiens with 24 samples.

Results

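Small RNA libraries from HEK293 cells that overexpress a nuclear lamin were compared, as 1 pooled group, with libraries from cells that overexpress green fluorescent protein. The members are the 9 lamin libraries (3 each of LMNA, LMNB1 and LMNB2) and the 3 GFP libraries of the small RNA count table, 12 of the 24 libraries of the series. They were chosen by the lamin or control protein in their labels, and each lamin counted equally whatever its replicates. The question was which of 175946 annotated non-coding features move the same way in all 3 lamins. The other 12 libraries are ATAC-seq libraries of the same 4 conditions and are used only for a description at the end. All cells were HEK293, an established human embryonic kidney line, with a wild type genotype. The treatments were eGFP overexpression (called GFP below), LaminA overexpression (LMNA), LaminB1 overexpression (LMNB1) and LaminB2 overexpression (LMNB2), with 3 replicates each. The vector, its promoter and the time after its introduction are not given in the sources used here. Nothing in the labels says that replicates came from separate cultures, so p-values measure the spread between these libraries, which may be technical.

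Lamins are intermediate filament proteins that form a meshwork under the inner nuclear membrane and hold large, mostly silent stretches of chromatin at the nuclear edge. LMNA encodes the A-type lamins, which are also found inside the nucleus, whereas LMNB1 and LMNB2 encode B-type lamins that stay anchored in the membrane. The small RNAs counted here come from all 3 RNA polymerases: ribosomal RNA from RNA polymerase I, snRNAs, snoRNA hosts, microRNA precursors and long non-coding RNAs (lncRNAs) mostly from RNA polymerase II, and tRNAs, 5S rRNA, 7SL and Y RNAs from RNA polymerase III. H/ACA box snoRNAs guide the conversion of uridine to pseudouridine, C/D box snoRNAs guide ribose methylation, and scaRNAs do the same for spliceosomal snRNAs in Cajal bodies.

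MicroRNAs of the results below are shown here because the seed is the main part that pairs with target messages, and members of a family share it. Sequences are from RefSeq (GRCh38.p14), read 5′ to 3′, with the seed (bases 2 to 8) in capitals. All 24 microRNA genes looked up were found there. The first 5 are let-7 family members, whose seed is shared by 11 mature names in that table. The next 2, from the miR-106b-25 cluster, have a seed shared by 8 names. The 2 after them, miR-92a-3p of miR-17-92 and miR-25-3p of miR-106b-25, have one shared by 6 names. The tested intervals of MIR106B, MIR92A1 and MIR93 include the arm shown, while that of MIR25 covers the hairpin. MIR7108 lies inside LMNB2, on chromosome 19, with its 3p arm at 2434914 to 2434933 and its 5p arm at 2434980 to 2435000, both on the minus strand. MIR12136 is on chromosome 1 at 632668 to 632685, minus strand, within a nuclear copy of mitochondrial DNA, and miR-194-5p comes from chromosome 1 at 220118206 to 220118227.
let-7a-5p: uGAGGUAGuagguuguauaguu
let-7f-5p: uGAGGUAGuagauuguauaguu
let-7g-5p: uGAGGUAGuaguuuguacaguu
let-7i-5p: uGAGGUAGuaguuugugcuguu
miR-98-5p: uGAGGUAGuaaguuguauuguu
miR-106b-5p: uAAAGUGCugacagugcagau
miR-93-5p: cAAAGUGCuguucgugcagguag
miR-92a-3p: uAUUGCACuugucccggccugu
miR-25-3p: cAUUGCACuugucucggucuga
miR-7108-5p: gUGUGGCCggcaggcgggugg
miR-7108-3p: aCCCGCCCgucuccccacag
miR-12136: gAAAAAGUcauggaggcc
miR-194-5p: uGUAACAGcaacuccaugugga

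The libraries held 132.5 to 195.1 M counts each, and 33893 features passed the filter on low counts. The GFP libraries stood apart from each other more than the lamin libraries did. MicroRNA features held 0.07%, 0.118% and 0.346% of counts in GFP replicates 1 to 3 and 0.107% to 0.153% in the 9 lamin libraries. GFP replicate 3 was thus above all 11 other libraries, and GFP replicate 1 below all of them. Nuclear tRNA features showed a like spread, with 0.678%, 0.767% and 1.73% of counts in GFP and 1.04% to 1.24% in the lamin libraries. For this reason values without a GFP library, mostly GFP replicate 3, are given beside many of the results below. Of 12 microRNAs usually seen in HEK293, all 12 were detected and tested, and their summed level was 96.1 to 220.1 counts-per-million (CPM) in 11 libraries and 470.6 in GFP replicate 3. Of 23 microRNAs that mark other cell types, 2 had enough counts to be tested, MIR126 and MIR200C. MIR451A of red cells and MIR133B of muscle were at 0 counts in all 12 libraries. The summed level of these 23 was 1.01 to 5.37 CPM, highest again in GFP replicate 3. The part of these differences in the results below was not tested beyond leaving that library out. Features on opposite strands that share at least 90% of their length had counts within 1.3-fold of each other in 264 of 267 pairs (98.9%), so the counts do not separate the strands.

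Few features differed between the pooled lamins and GFP, and those that did lay mostly over the overexpressed genes themselves. In the pooled contrast, the mean of the 3 lamin log2 levels minus the GFP level, 12 features had an adjusted p under 0.05 (0.0354% of those tested). All 12 were higher in the lamins. No feature was called lower, against 2056 (6.07%) lower and 1246 (3.68%) higher at an unadjusted p under 0.05, and against 10 lower (0.0295%) and 148 higher (0.437%) with DESeq2. The DESeq2 shares count as not called 30894 features to which it gave no adjusted p. Many called intervals overlap: the 158 DESeq2 calls lay at 53 separate loci, and the 12 edgeR calls at 4. The median log2 fold change over all tested features was −0.05. Of the 12 features, 10 overlap LMNB2 (7) or LMNB1 (3), and the other 2 are the lncRNAs lnc-BCOR-8 and AC004551.2. With the 14 tested features over the lamin genes left out, an alternative added after seeing the data, no feature passed. The adjusted p of the 2 lncRNAs thus passed only with the lamin loci among the features adjusted for.

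The lncRNA lnc-BCOR-8 was higher in every lamin library than in any GFP library. Its interval on chromosome X, from 39786501 to 39786848 on the minus strand, covers RN7SL732P, a pseudogene copy of the 7SL RNA of the signal recognition particle. It had 0.584, 0.514 and 0.496 CPM in GFP, with 0.877, 0.773 and 1.02 for LMNA, 0.676, 0.716 and 0.714 for LMNB1 and 1.60, 1.46 and 1.56 for LMNB2. LMNB2 was highest, LMNB1 lay closest to GFP, and the groups did not overlap (9 lamin libraries above 3 GFP libraries, a pattern shown by 0.782% of tested features). The pooled log2 fold change was 0.90 ± 0.13 (SE; adjusted p = 0.00859), with 0.75 in LMNA, 0.40 in LMNB1 and 1.54 in LMNB2. It was 0.91 without GFP replicate 3 (adjusted p = 0.00851), but the adjusted p rose to 0.085 without GFP replicate 2 and to 0.24 when libraries were scaled by their total counts only. DESeq2 gave it no adjusted p. Reads of near-identical 7SL copies may be shared with this pseudogene: RN7SL1, the 7SL gene itself, had 15.4, 12.2 and 14.1 CPM in GFP, with 23.6, 18.2 and 16.5 for LMNA, 15.2, 17.3 and 13.8 for LMNB1 and 21.4, 21.3 and 20.6 for LMNB2. RN7SL1 was highest in LMNB2 too, while LMNB1 overlapped GFP. Its log2 fold change was 0.41 ± 0.17 and did not pass (unadjusted p = 0.0273, adjusted p = 0.486). How far shared reads set the value of lnc-BCOR-8 was not tested.

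The lncRNA interval AC004551.2, on chromosome 12 from 112907603 to 113017776, spans OAS1, OAS2 and OAS3, which encode oligoadenylate synthetases, interferon-induced sensors of double-stranded RNA. Its counts were 16, 18 and 23 in GFP, with 52, 54 and 50 for LMNA, 83, 66 and 86 for LMNB1 and 37, 24 and 20 for LMNB2. On the CPM scale, which corrects for library size, GFP had 0.133 ± 0.00400 (SD, n = 3), LMNA 0.330 ± 0.0405, LMNB1 0.468 ± 0.0556 and LMNB2 0.173 ± 0.0439. All 9 lamin libraries were again above the 3 GFP libraries, although LMNB2 replicates 2 and 3 exceeded the highest of them only narrowly (0.154 and 0.142 against 0.137 CPM). The pooled log2 fold change was 1.17 ± 0.19 (adjusted p = 0.0198), made of 1.3 in LMNA, 1.81 in LMNB1 and 0.39 in LMNB2, the last with an unadjusted p of 0.106. Leaving out GFP replicate 2 gave an adjusted p of 0.151, leaving out LMNB1 replicates 1 and 3 in turn gave 0.0585 and 0.0521, and scaling by total counts only gave 0.145. Since the counts carry no strand, the reads cannot be assigned to the lncRNA rather than to the OAS messages it overlaps.

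**Figure D1:**
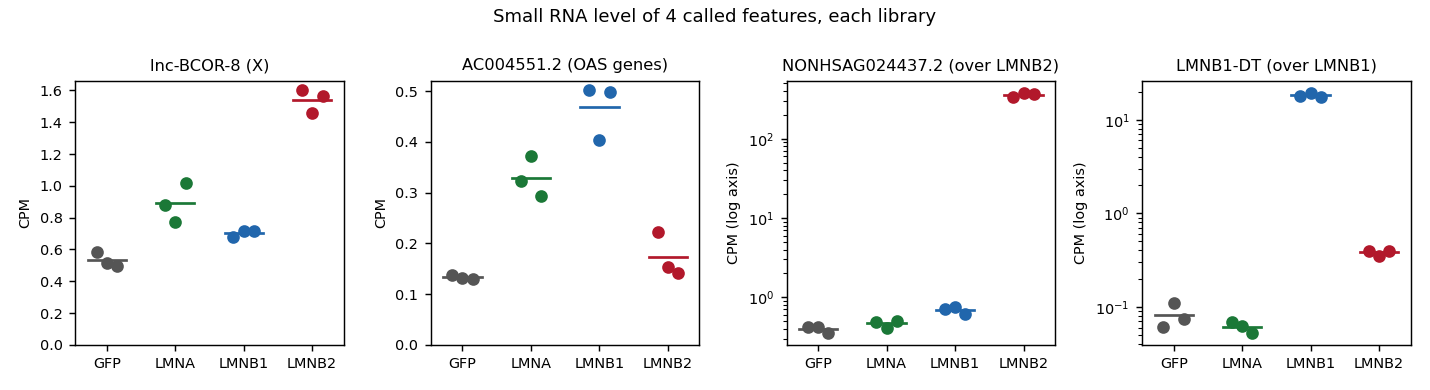
Level in counts-per-million (CPM) of 4 called features in each of the 12 small RNA libraries, by group on the horizontal axis, with points for replicates and a line for the group mean. The left pair has linear axes from 0 and shows all 9 lamin libraries above GFP. The right pair has log axes and shows 1 lamin group far above the others, LMNB2 at 336.4 to 378.1 CPM for NONHSAG024437.2 and LMNB1 at 17.6 to 19.3 CPM for LMNB1-DT.

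The 10 called features over lamin genes were each highest in the lamin whose gene they overlap. NONHSAG024437.2, an interval on chromosome 19 from 2431529 to 2456974 that spans LMNB2, had 0.421, 0.426 and 0.355 CPM in GFP, with 0.492, 0.414 and 0.497 for LMNA, 0.713, 0.753 and 0.621 for LMNB1 and 336.4, 378.1 and 364.6 for LMNB2. LMNA overlapped GFP, and LMNB2 was far above every other library. The pooled log2 fold change of 3.61 ± 0.22 (adjusted p = 2.21e-07) averages 0.23, 0.80 and 9.81. MIR7108, the microRNA of the LMNB2 gene shown above, had 3088, 3096 and 2445 counts over its 3p interval in LMNB2, 1, 0 and 5 in GFP, and no more than 6 in any LMNA or LMNB1 library. Its 3p interval (3.90 ± 0.51, adjusted p = 0.00234) and its hairpin (3.61 ± 0.43, adjusted p = 0.000615) were called, and its 5p interval was not (3.16 ± 0.65, adjusted p = 0.262). These intervals reach 25 bases beyond the arm or hairpin on each side and lie within LMNB2. Their reads therefore cannot be assigned to the microRNA rather than to LMNB2 transcripts. The other called features over LMNB2 were lnc-GADD45B-1, lnc-TIMM13-1, lnc-TIMM13-2 and lnc-TIMM13-3, with pooled log2 fold changes of 1.95 to 3.66. Over LMNB1, both intervals named for the divergent transcript LMNB1-DT were called, on chromosome 5 from 126776224 and from 126777177 to 126778255. Both overlap LMNB1, and the shorter overlaps no other RefSeq gene. Since the counts carry no strand, their reads cannot be assigned to LMNB1-DT rather than to LMNB1. The shorter interval had 0.0812 ± 0.0260 CPM (SD, n = 3) in GFP, against 0.0611 ± 0.00796 for LMNA, 18.2 ± 0.926 for LMNB1 and 0.383 ± 0.0266 for LMNB2. LMNB2 was thus also above GFP, by a log2 fold change of 2.22 ± 0.24 (adjusted p = 0.000162), while LMNA was not (−0.41). An interval of chromosome 5 from 126627727 to 126935934, annotated as signal recognition particle RNA (Metazoa_SRP_SRP_RNA_URS0000941A94) and containing LMNB1, had a pooled value of 2.35 ± 0.19, made of 0.05, 6.77 and 0.22. No feature over LMNA was called. Whether these reads came from the chromosomal gene or from the introduced one cannot be told apart.

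A change shared by all 3 lamins was tested directly, by requiring that each lamin differ from GFP in one direction and taking the largest of its 3 p-values. No feature passed after adjustment. The lowest largest p was 0.00098, whose adjusted value was 1, and DESeq2 also gave 0. At an unadjusted largest p under 0.05 there were 182 features (0.537%), 91 higher (0.268%, at 59 separate loci) and 91 lower (0.268%, at 53 loci). With DESeq2 there were 77. All 3 lamins had one sign in 6767 features higher (20%) and 9910 lower (29.2%), and these signs share the GFP libraries. The 9 lamin libraries lay wholly above the 3 GFP libraries in 265 features (0.782%, 127 loci) and wholly below in 160 (0.472%, 92 loci). A joint test of differences among the 3 lamins called 654 features (1.93%). Of the 12 features called in the pooled contrast, 9 had one sign in all 3 lamins, and only lnc-BCOR-8 and AC004551.2 had all 9 lamin libraries above GFP.

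The features nearest to a shared rise, chosen after their values were seen, lay in the major histocompatibility region of chromosome 6. NONHSAG043458.2, from 31185843 to 31197902 over the non-coding genes HCG27 and PSORS1C3, rested on 5, 6 and 11 counts in GFP and 15 to 33 in the lamins. It had 0.0430, 0.0441 and 0.0620 CPM in GFP. Levels were 0.124, 0.104 and 0.170 for LMNA, 0.127, 0.135 and 0.191 for LMNB1 and 0.151, 0.102 and 0.128 for LMNB2. All 9 lamin libraries were above GFP (0.782% of all features), with log2 fold changes of 1.38, 1.56 and 1.31 (pooled 1.42, adjusted p = 0.169, joint test among lamins 0.819). The pooled value was 1.69 and passed without GFP replicate 3 (adjusted p = 0.0338). The interval NONHSAG010333.2 over PTMS, which encodes the small acidic protein parathymosin, had log2 fold changes of 1.56, 1.59 and 2.42 over 3, 2 and 3 counts in GFP. Among lower features, ENSG00000259495.3, an interval of the divergent transcript ARNT2-DT on chromosome 15, was at −1.0, −1.07 and −1.51 (adjusted p = 0.231).

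By the rule for named features, 10 loci in each direction with one sign in all 3 lamins were examined. The higher ones that did not pass were lnc-CH25H-2, SCARNA18, NONHSAG037205.2, NONHSAG022317.2, a second Metazoa_SRP interval on chromosome 8 and AC026458.2, with adjusted p of 0.169 to 0.262. Without GFP replicate 3, NONHSAG037205.2 (0.99, adjusted p = 0.0499) and the chromosome 8 interval, Metazoa_SRP_SRP_RNA_URS000098982A (0.91, adjusted p = 0.0281), passed. Without GFP replicate 1, lnc-CH25H-2 passed (1.36, adjusted p = 0.0294). The interval lnc-CH25H-2 spans IFIT2 and IFIT3, which are interferon-induced, and LIPA, a lysosomal lipase. It had 0.189, 0.103 and 0.101 CPM in GFP, with 0.299, 0.283 and 0.240 for LMNA, 0.435, 0.471 and 0.569 for LMNB1 and 0.157, 0.134 and 0.121 for LMNB2. LMNA and LMNB1 lay above GFP, and LMNB2 within it (log2 fold changes 1.09, 1.94 and 0.11). NONHSAG022317.2 is an interval over the splicing factor gene SRSF1. Its level was 0.186 to 0.213 CPM in GFP, against 0.287 to 0.305 for LMNA, 0.269 to 0.307 for LMNB1 and 0.334 to 0.390 for LMNB2. All 9 lamin libraries were above GFP (0.782% of all features), with log2 fold changes of 0.58, 0.54 and 0.88 and a pooled value of 0.67 ± 0.15 (adjusted p = 0.26). SCARNA18, a Cajal body guide RNA, had 0.765, 0.786 and 0.986 CPM in GFP and 0.954 to 2.03 in the lamins. LMNB1 replicate 1 overlapped GFP, and the pooled value of 0.67 ± 0.14 passed without GFP replicate 3 (0.85, adjusted p = 0.014).

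The lower loci were led by a lncRNA of chromosome 9. LINC01239, from 22238168 to 22674649, had 1.01, 0.853 and 0.935 CPM in GFP, with 0.535, 0.601 and 0.673 for LMNA, 0.670, 0.606 and 0.760 for LMNB1 and 0.507, 0.569 and 0.433 for LMNB2. All 9 lamin libraries were below all 3 GFP libraries, as in 0.472% of all features. The pooled log2 fold change was −0.66 ± 0.13 (adjusted p = 0.169), and −0.59 without GFP replicate 3 (adjusted p = 0.0486). The same complete separation held for AC093879.1 over ANK2, an ankyrin gene (−0.65 ± 0.15), for lnc-DAP-15 over CTNND2, a catenin gene (−0.80 ± 0.19), for ENSG00000233008.6 over LINC01725 (−0.93 ± 0.22) and for the mitochondrial MT-TD (−0.67 ± 0.16), each with an adjusted p of 0.262. Loci were named here for a low unadjusted p, which 141 of the 160 features wholly below GFP had under 0.05. The separation is thus no added evidence. In lnc-EFCAB3-7, LMNA replicate 3 (0.450 CPM) overlapped the GFP range of 0.439 to 0.514. Other loci rested on GFP replicate 3. MIR31HG, the host gene of miR-31, had 0.464, 0.478 and 0.901 CPM in GFP and 0.253 to 0.483 in the lamins, and its log2 fold change went from −0.82 to −0.36 without that library and to −0.99 without GFP replicate 1 (adjusted p = 0.0483). The interval lnc-RAB3GAP2-1, which holds MIR194-1 and MIR215, had 0.361, 0.309 and 0.704 CPM in GFP and 0.154 to 0.392 in the lamins, and went from −0.97 to −0.43.

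**Figure D2:**
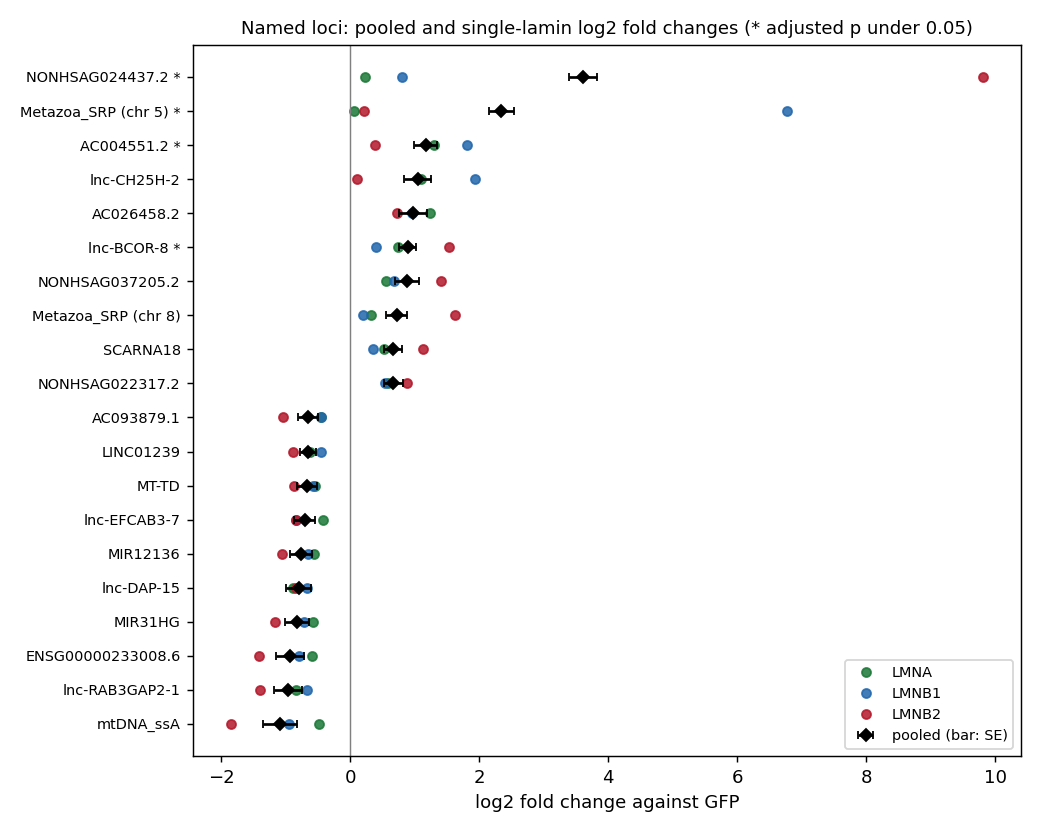
Log2 fold changes against GFP of the 20 loci named by rule, in descending order of the pooled value (diamonds, bars are SE), with the 3 single-lamin values as circles. Stars mark an adjusted p under 0.05. NONHSAG024437.2 is drawn out by LMNB2 (9.81) and Metazoa_SRP_SRP_RNA_URS0000941A94 by LMNB1 (6.77), and all 10 lower loci have 3 circles below 0.

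Some mitochondrial tRNA features had values below GFP that did not pass in edgeR, as did MIR12136 and a nuclear interval named for mitochondrial DNA. The interval of MT-TD, the aspartate tRNA of the mitochondrial genome, also overlaps COX2 and the serine tRNA gene TRNS1. Its reads thus cannot be assigned to the aspartate tRNA alone. MT-TD had 5.90, 4.50 and 6.44 CPM in GFP, with 4.26, 3.08 and 4.15 for LMNA, 3.39, 3.62 and 4.30 for LMNB1 and 3.20, 3.02 and 2.98 for LMNB2. Every lamin library was below the lowest GFP library. DESeq2 called it (adjusted p = 0.00648), as it did MT-TT, the threonine tRNA (edgeR log2 fold change −0.45 ± 0.16, DESeq2 adjusted p = 0.0332). Of 46 tested mitochondrial features, 6 were lower and 0 higher at an unadjusted p under 0.05, against 6.07% and 3.68% of all features. In sign, 29 were lower, against 18985 of all 33893 features, and the median was −0.08. MIR12136 had 2.70, 1.98 and 4.08 CPM in GFP, with 2.15, 1.66 and 2.13 for LMNA, 1.80, 1.79 and 1.97 for LMNB1 and 1.51, 1.32 and 1.39 for LMNB2. GFP replicate 2 fell within LMNA, and the pooled value of −0.76 ± 0.17 went to −0.38 without GFP replicate 3 and to −0.97 without GFP replicate 2 (adjusted p = 0.0426). DESeq2 called it with all libraries (adjusted p = 0.0167). An interval named mtDNA_ssA, on chromosome 5 within KIAA0825, had −1.09 ± 0.26, and −0.67 without GFP replicate 3. Reads of nuclear copies of mitochondrial DNA can be shared with mitochondrial RNA, and how far they were was not tested.

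H/ACA box snoRNAs were mostly higher in sign in the lamins, and none passed after adjustment. Of 195 listed, 131 were tested, and 105 were higher and 26 lower in sign. At an unadjusted p under 0.05, 22 were higher and 2 lower, against 3.68% and 6.07% of all features. Their median was 0.25, with 0.41 in LMNA, 0.03 in LMNB1 and 0.28 in LMNB2, beside −0.05 over all features. It stayed between 0.12 and 0.34 when a GFP library was left out. In 7 of them all 9 lamin libraries were above GFP (0.782% of all features). SNORA4, made from an intron of EIF4A2, a translation initiation factor gene, had low counts (5 to 26 per library). Its level was 0.0601, 0.0368 and 0.0563 CPM in GFP, with 0.143, 0.131 and 0.111 for LMNA, 0.0846, 0.0918 and 0.104 for LMNB1 and 0.151, 0.166 and 0.142 for LMNB2. The lowest lamin library was above the highest GFP library, and the log2 fold change was 1.25 ± 0.25 (adjusted p = 0.169). SNORA16A, from the host gene SNHG12, had 5.57, 5.04 and 4.57 CPM in GFP, with 6.48, 6.73 and 7.07 for LMNA, 6.76, 6.73 and 7.16 for LMNB1 and 9.85, 12.4 and 11.3 for LMNB2. Its log2 fold change was 0.67 ± 0.16 (adjusted p = 0.262), and DESeq2 called it (adjusted p = 2.35e-06). SNORA17A from SNHG7 (0.66 ± 0.15) and SNORA71B from SNHG17 (0.56 ± 0.15, listed in overlapping intervals with equal counts) also had all lamin libraries above GFP. These 4 snoRNAs passed without GFP replicate 3, with adjusted p of 0.0473 for SNORA4, 0.0392 for SNORA16A, 0.0228 for SNORA17A and 0.0472 for SNORA71B. The scaRNAs had a median of 0.17 over 27 tested, with 6 higher and 0 lower at an unadjusted p under 0.05. The C/D box snoRNAs had a median of −0.07 over 194 tested, with 16 higher and 12 lower, and that median was 0.19 without GFP replicate 1 and −0.18 without GFP replicate 2. Their GFP libraries were spread apart: for the 10 snoRNAs of GAS5, a growth-arrest host gene, the GFP levels relative to their mean were 0.75, −0.24 and −0.63 on the log2 scale. The median of these 10 was −0.48 with all libraries and 0.11 without GFP replicate 1.

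Spliceosomal U1 snRNA, which recognises the start of introns, was also higher in sign, and no U1 feature passed after adjustment. Of 15 tested U1 features, 14 were higher in sign, 12 were higher in all 3 lamins (20% of all features), and 9 were higher at an unadjusted p under 0.05 (3.68% of all features). The median log2 fold change was 0.43 (0.35 in LMNA, 0.21 in LMNB1 and 0.67 in LMNB2), and 0.34 to 0.49 without a GFP library. RNVU1-7, a variant U1 gene on chromosome 1, had 62.5, 60.2 and 56.1 CPM in GFP, with 102.6, 69.7 and 76.1 for LMNA, 63.9, 71.2 and 66.3 for LMNB1 and 104.9, 102.4 and 101.6 for LMNB2. All lamin libraries were above GFP, LMNB1 only just, and LMNA replicate 1 stood apart from its group. The fold change was 0.48 ± 0.18 (unadjusted p = 0.0165, adjusted p = 0.486), and DESeq2 called this and 8 other U1 features. Of all features DESeq2 called 0.437% higher, but that share counts as not called 30894 features without an adjusted p. It is thus too low a background for features that DESeq2 could call. U1 features are near-identical copies whose reads can be counted at several of them, so they are not separate measurements. The 12 U2 features had a median of 0.18, the 5 U5 features −0.24 and the 9 U6 features −0.12, with none of U2 or U6 at an unadjusted p under 0.05. Without GFP replicate 1 the U5 median was 0.04 and the U6 median 0.27. The 15 features of ribosomal RNA from RNA polymerase I were all higher in sign, against 14908 of all 33893 features. Their median was 0.25, and 0.49 in LMNB2. These 15 overlap at 2 loci, so they are not separate measurements either. None of the 15 had an unadjusted p under 0.05 in edgeR, and DESeq2 called 8.

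**Figure D3:**
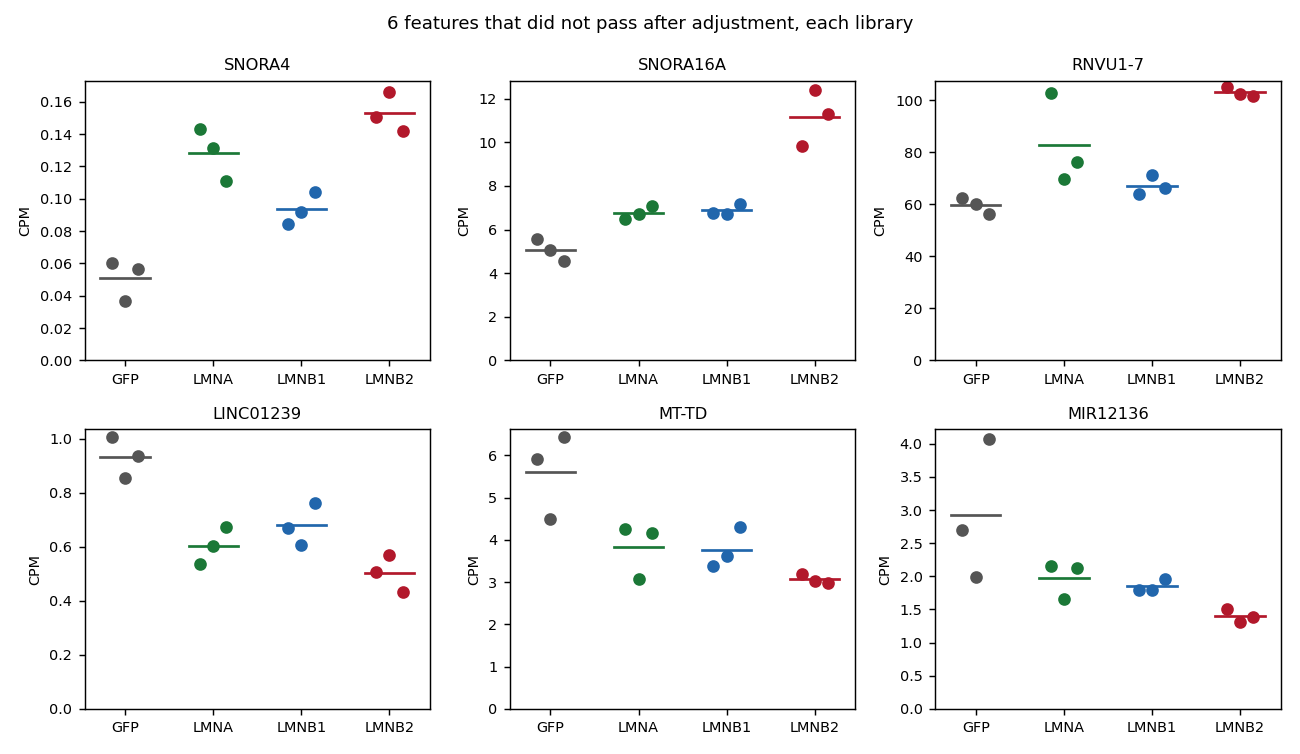
Level in counts-per-million (CPM, linear axes from 0) of 6 features that did not pass after adjustment, with points for the 3 replicates and a line for the mean of each group. SNORA4, SNORA16A and RNVU1-7 have all 9 lamin libraries above GFP, LINC01239 and MT-TD have all 9 below, and MIR12136 has GFP replicate 2 (1.98 CPM) within the LMNA range.

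MicroRNA features were mostly lower in sign against GFP, and this turned over with 1 library. Of 436 tested, 364 were lower, 286 of them in all 3 lamins, and 112 were lower and 9 higher at an unadjusted p under 0.05. Over all features, 29.2% were lower in all 3 lamins, and 6.07% were lower and 3.68% higher at that threshold. The median log2 fold change was −0.50 (−0.28 in LMNA, −0.33 in LMNB1 and −0.94 in LMNB2). No microRNA feature had all 9 lamin libraries below GFP. The class level of a library, the median over its features of the log2 CPM minus the GFP mean, was −0.69, −0.25 and 0.95 in GFP replicates 1 to 3 and −0.73 to 0.08 in the lamins. Without GFP replicate 3 the median was 0.23, and 90 features were higher and 10 lower at an unadjusted p under 0.05, against 8.52% and 5.43% of all features in that fit. The only 2 microRNA features called were those of MIR7108.

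The let-7 family, whose mature forms share the seed shown above and repress growth-promoting messages such as those of RAS genes, followed the microRNA class as a whole. The 23 tested let-7 features lay at 12 separate loci, since hairpin and arm intervals of a gene overlap and share reads. Of the 23, 21 were lower in sign, 19 of them in all 3 lamins (29.2% of all features). At an unadjusted p under 0.05, 16 were lower (6.07% of all features). The let-7 median was −0.94, and 0.16 without GFP replicate 3. The let-7g-5p arm interval (MIRLET7G) on chromosome 3 had 0.378, 0.514 and 3.03 CPM in GFP, with 0.716, 0.898 and 0.597 for LMNA, 0.725, 0.551 and 0.557 for LMNB1 and 0.440, 0.384 and 0.242 for LMNB2. GFP replicate 3 was above every other library, and GFP replicate 1 was below all LMNA and LMNB1 libraries. Its log2 fold change was −1.28 ± 0.54 with all libraries and 0.34 without GFP replicate 3. The let-7f-5p arm on chromosome 9 went from −1.16 to 0.16 and that of let-7i-5p from −1.06 to −0.09. The opposite arms let-7f-1-3p and let-7i-3p were at 0.24 ± 0.25 and 0.01 ± 0.37, and let-7e-3p was at −0.45 ± 0.19. The miR-98-5p arm was at −1.0 ± 0.31, and −0.25 without GFP replicate 3. The let-7a-5p arm of MIRLET7A2 went from −0.94 ± 0.40 to 0.20 in the same way. The 6 tested intervals of the growth-promoting miR-17-92 cluster each cover a 3p arm. Of these, 5 were lower in sign and 4 were lower at an unadjusted p under 0.05, with a median of −0.50. That median was −0.15 without GFP replicate 3, with 1 lower at that threshold. The miR-20a-3p interval (MIR20A) had 2.84, 1.40 and 3.90 CPM in GFP and 1.29 to 2.53 in the lamins. Its log2 fold change was −0.61 ± 0.20, −0.20 without GFP replicate 3, and passed without GFP replicate 2 (adjusted p = 0.0251). MIR92A1 was at −0.42 ± 0.26 and MIR19B1 at 0.02 ± 0.18. The miR-106b-5p arm (MIR106B) was at −0.88 ± 0.43, and 0.37 without GFP replicate 3. The 4 intervals of miR-106b-25 had a median of −0.70, and of 0.41 without GFP replicate 3. MIR194-1 was at −1.35 ± 0.31 (adjusted p = 0.262), and −0.64 without that library.

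**Figure D4:**
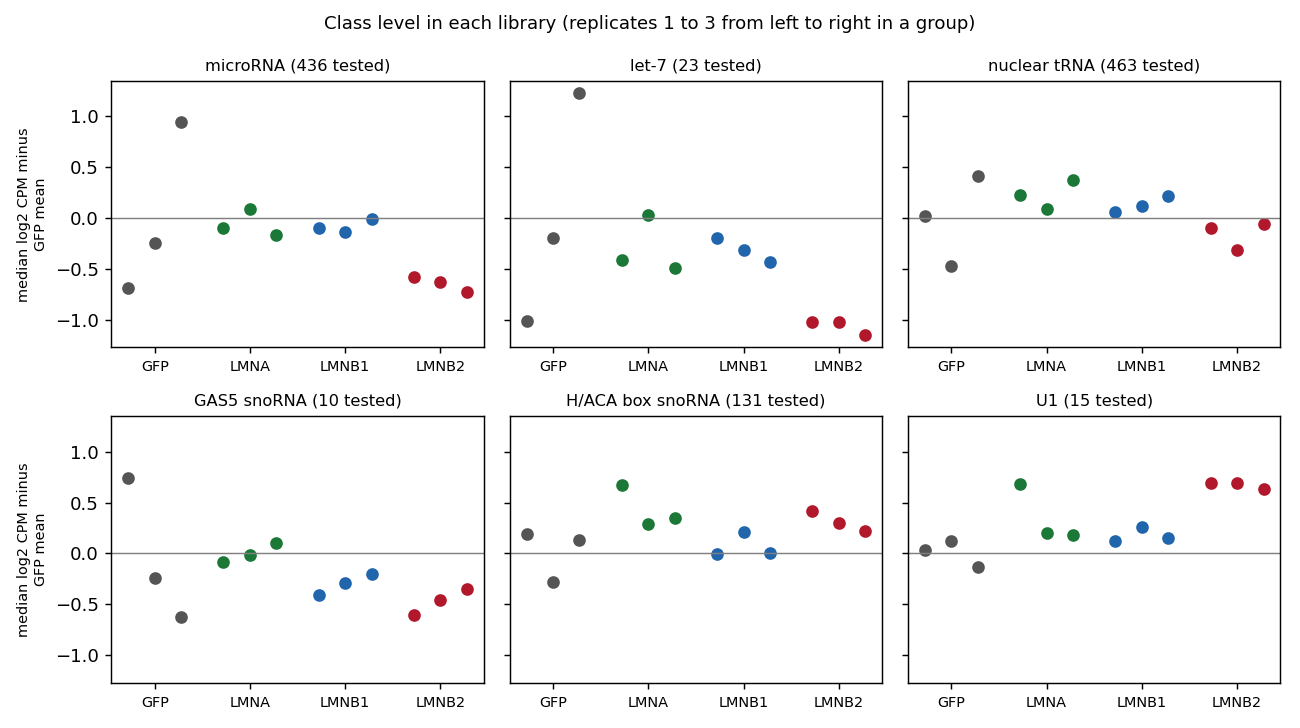
Level of 6 classes in each of the 12 libraries, as the median, over tested features, of the difference between log2 CPM and that feature's GFP mean, with replicates 1 to 3 from left to right in each group. In microRNA and let-7 the GFP libraries span −0.69 to 0.95 and −1.01 to 1.23, a wider range than the 9 lamin libraries. In U1 the LMNB2 libraries lie at 0.63 to 0.70, above GFP at −0.13 to 0.12.

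Nuclear tRNAs, the main RNA polymerase III products here, did not move one way. Of 463 tested, 236 were higher and 227 lower in sign, 26 were higher and 25 lower at an unadjusted p under 0.05, none was called, and the median was 0.01. Those shares compare with 3.68% and 6.07% of all features. Without GFP replicate 3 the median was 0.30, with 159 higher and 1 lower at that threshold (8.52% and 5.43% of all features in that fit), and 15 called, all higher (0.632% of all features). Without GFP replicate 2 it was −0.22. The tRNA-Lys-TTT-9-1 gene, on chromosome 6 from 27576042 to 27576164, had 13.3, 10.2 and 10.6 CPM in GFP, with 19.4, 19.7 and 21.4 for LMNA, 16.4, 17.6 and 17.9 for LMNB1 and 14.2, 16.5 and 15.3 for LMNB2. Its 9 lamin libraries were above GFP, with a pooled log2 fold change of 0.63 ± 0.16 (adjusted p = 0.348; DESeq2 adjusted p = 4.99e-05). The same separation held for tRNA-Asn-GTT-12-1 (0.56 ± 0.17, passing without GFP replicate 3 with an adjusted p of 0.0383), tRNA-Arg-TCT-5-2 on chromosome 11 (0.56 ± 0.17) and tRNA-Pro-TGG-1-1 (0.61 ± 0.19). These were the only 4 of the 463 tRNAs with it, a share near the 0.782% of all features. That separation did not hold for the more abundant tRNA-Arg-TCT-5-2 entry on chromosome 9 (0.46, edgeR unadjusted p = 0.0434). Among alanine tRNA genes, 35 of 43 were lower in sign, 16 at an unadjusted p under 0.05, with a median of −0.56. That median was 0.15 without GFP replicate 3. One of them, tRNA-Ala-AGC-13-1 (−0.90 ± 0.24, adjusted p = 0.353), had all 9 lamin libraries below GFP and was at −0.94 without GFP replicate 3. It was the only 1 of the 463 tRNAs wholly below GFP, against 0.472% of all features. The 3 RN7SL genes had a median of 0.40, with 2 higher at an unadjusted p under 0.05 and 3 without GFP replicate 3. Other RNA polymerase III medians were 0.09 for 17 copies of 5S rRNA, 0.19 for 4 Y RNAs, −0.07 for 4 vault RNAs and 0.11 for RN7SK. The 33 SNAR features had a median of 0.55, with 1.16 in LMNA, 0.57 in LMNB1 and −0.08 in LMNB2, and 0 higher and 3 lower at that threshold. It was 1.11 without GFP replicate 1 and 0.29 without GFP replicate 2.

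**Figure D5:**
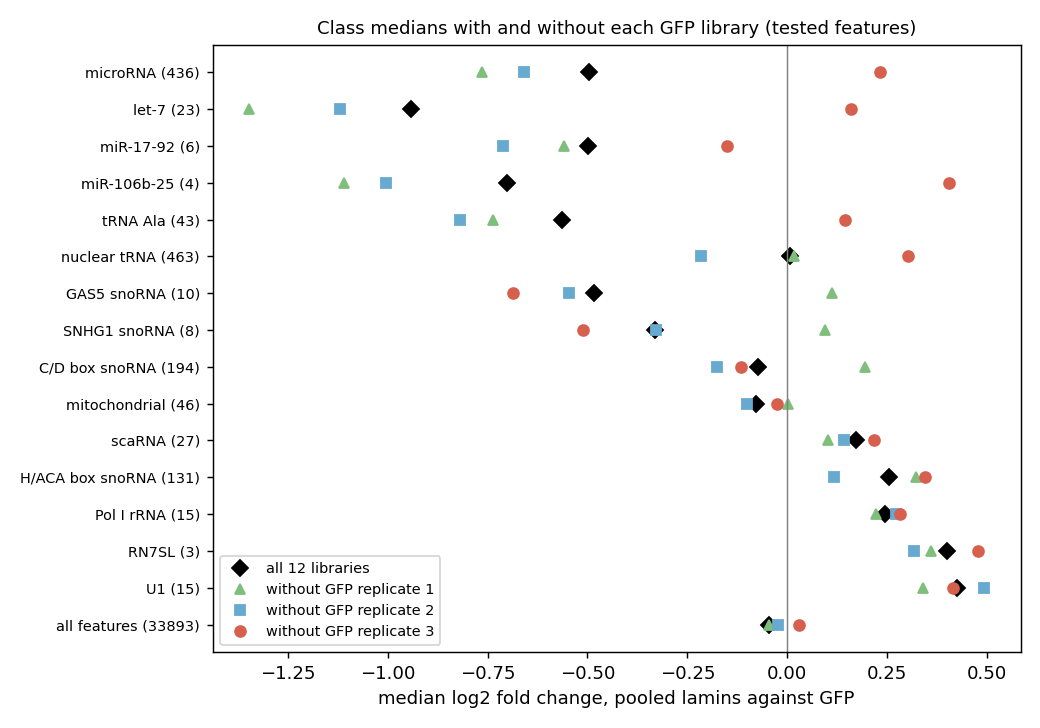
Median log2 fold change of the pooled lamins against GFP for 15 classes and for all tested features (number tested in brackets), with all 12 libraries (diamonds) and with each GFP library left out. MicroRNA, let-7, miR-106b-25 and alanine tRNA medians change sign without GFP replicate 3, and GAS5 and SNHG1 snoRNA medians without GFP replicate 1. H/ACA snoRNA, scaRNA, RN7SL, RNA polymerase I rRNA and U1 medians are above 0 in all 4 fits.

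Without GFP replicate 3, 311 features at 127 separate loci were called, 228 higher (0.632%) and 83 lower (0.23%). Of the 311, 309 had one sign in all 3 lamins. The 311 included all 12 features called with all libraries, and 51 of the 311 had the opposite sign there. The called members of the classes included 29 intervals of SNHG snoRNA hosts, 15 tRNAs, 14 microRNA features, 10 H/ACA snoRNAs and 5 scaRNAs, all higher, with C/D snoRNAs divided into 5 higher and 6 lower. Without GFP replicate 1, 83 were called at 22 separate loci, 26 higher (0.0694%) and 57 lower (0.152%). The lower ones include many overlapping intervals of LINC00461 on chromosome 5, which share reads. Without GFP replicate 2 there were 12 at 4 loci, 10 higher (0.0268%) and 2 lower (0.00535%). The 10 features over lamin genes were called in all 3 of these fits, and no other feature was.

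SCARNA14 and SNORD19C are examples of features called only with a GFP library left out or by the other tool, chosen after their values were seen. SCARNA14, a scaRNA of chromosome 15, had 4.15, 5.44 and 8.79 CPM in GFP, with 9.98, 9.18 and 10.7 for LMNA, 9.49, 11.9 and 10.8 for LMNB1 and 7.88, 8.31 and 8.50 for LMNB2. GFP replicate 3 was above all of LMNB2. The log2 fold change was 0.64 ± 0.20 with all libraries (adjusted p = 0.459) and 1.06 without it (adjusted p = 0.00277). SNORD19C, a C/D box snoRNA of chromosome 3, was at −0.77 with all libraries (unadjusted p = 0.00333) and −1.02 without GFP replicate 3 (adjusted p = 0.00151). It is 1 of the 10 features that DESeq2 called lower. The others were MT-TD, MT-TT, both MIR12136 intervals, 4 alanine tRNA intervals and a tRNA interval of chromosome 5 (ENSPPAG00000000029.1).

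In the ATAC libraries of the same conditions, a measure of open chromatin, 163786 windows on the features were tested in the same contrast. None was called higher and 2 (0.00122%) lower, against 3706 higher (2.26%) and 4284 lower (2.62%) at an unadjusted p under 0.05. With DESeq2 there were 16 higher and 56 lower. Both called windows belong to lnc-SLC12A7-1 on chromosome 5, with pooled log2 fold changes of −0.76 ± 0.11 and −0.66 ± 0.10, near 0 in LMNA (−0.02 and −0.07). No feature was called in both assays. The window of lnc-BCOR-8 was at 0.14 and that of AC004551.2 at −0.03, with adjusted p of 0.992 for both. At NONHSAG024437.2 over LMNB2 the ATAC value was 3.50 ± 0.75, made of −0.75, 0.79 and 10.46, and it did not pass (adjusted p = 0.979). Over LMNB1, the shorter LMNB1-DT window was at 1.16, 9.90 and 0.74 (pooled adjusted p = 0.15). The Metazoa_SRP window of chromosome 5 was at 0.67, 8.73 and 0.44 (pooled adjusted p = 0.0522). Whether these values over lamin genes reflect open chromatin or DNA of the introduced gene cannot be told apart. The ATAC window of MT-TD, on the mitochondrial genome, was at −0.62 and did not pass (unadjusted p = 0.00346, adjusted p = 0.979). Whether that value reflects open chromatin or the amount of mitochondrial DNA was not tested.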

How the data were processed

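Per the labels, small RNA was sequenced from HEK293 cells overexpressing eGFP, LMNA, LMNB1 or LMNB2, with 3 replicates each. The authors deposited raw counts per annotated feature and library, whole numbers by their values, and made them with genome build GRCh38, per the submitters' processing notes. The aligner, the counter, the use of strand and the treatment of reads with several matches are not given in the sources used here. Overlapping features carry the same reads, so totals exceed the number of reads. All 24 count columns matched a sample, and 0 were unassigned. Positions are those of the files, counted from 1, and gene and microRNA names for overlaps come from RefSeq (GRCh38.p14).

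One edgeR model (version 4.0.16, in R 4.3.3) held the 12 small RNA libraries (filterByExpr, TMM scaling, robust quasi-likelihood test) with a mean per group. The contrast was the mean of the 3 lamins minus GFP, with Benjamini-Hochberg adjustment over all tested features and calls at an adjusted p under 0.05. Log2 fold changes use edgeR's prior count of 0.125, and CPM the TMM-scaled sizes. The shared change was tested by the largest of the 3 single-lamin p-values where signs were equal, and ATAC counts by the same contrast. The biological coefficient of variation was 0.227. The fit was tested on simulated data with changed features of known size.

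Named features were called features with one sign in all 3 lamins and a mean log2 CPM no lower than the median, −2.79, over features tested, ranked by size of change, with overlapping ones merged into loci. Each direction was filled to 10 loci by lowest unadjusted p. Called features over lamin genes and in the fixed classes were added. The members and lists were chosen with earlier results of these data known. Alternatives were other scalings and filters, DESeq2 1.42.0, the replicate number as a block, fewer feature types or lamins, and leaving out each library. Counts differed between replicates by more than counting noise, and each library was kept as 1 replicate. Most same-numbered libraries of different groups did not vary together (median correlation 0.0252). The exceptions were GFP with LMNA, at 0.211 for replicate 2 and 0.234 for replicate 3, while 0 of 36 different-number pairs exceeded 0.1. The main model did not pair libraries by number.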

Additional observations from a re-analysis of the deposited data

Results flagged for a closer look

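Among the features named or called above, 16 had effects that differed among the 3 lamins by a joint edgeR quasi-likelihood test with Benjamini-Hochberg adjustment (654 of all tested features did, 1.93%). Outside the lamin genes, the adjusted p of that test was 0.00251 for AC004551.2 at the OAS genes, highest in LMNB1, and 0.00154 for lnc-BCOR-8, highest in LMNB2. It was 0.00124 for lnc-CH25H-2 at IFIT2 and IFIT3, where LMNB2 was level with GFP, and 0.0279 for SCARNA18. It was 0.0408 for NONHSAG037205.2 and 0.000378 for the Metazoa_SRP interval of chromosome 8, both highest in LMNB2.

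The remaining ones lay over the overexpressed genes. Over LMNB2 the adjusted p was 9.11e-14 for NONHSAG024437.2, 1.53e-13 for lnc-GADD45B-1 and for lnc-TIMM13-1, 2.43e-12 for lnc-TIMM13-2, 2.76e-13 for lnc-TIMM13-3, and 2.88e-11 and 1.08e-11 for the 3p arm and the hairpin of MIR7108. Over LMNB1 it was 2.76e-13 for the Metazoa_SRP interval of chromosome 5, and 2.43e-12 and 2.76e-13 for the longer and the shorter interval of LMNB1-DT. For these 10 the level was highest in the lamin named by the locus, and at LMNB1-DT LMNB2 was also above GFP. Groups of 3 libraries were not searched for outlying samples.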

How the results depend on the processing

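With all libraries, 12 features were called in the pooled contrast. The count was 10 with total counts only, 12 with DESeq2's size factors, and 284 (71 higher, 213 lower) with no count filter. It was 158 (148 higher, 10 lower, at 53 loci) with DESeq2, which gave no adjusted p to 30894 features. It was 3 without lncRNA features and 0 without the features over the lamin genes, the last chosen after seeing the data. Leaving out 1 library gave 11 (without LMNB1 replicate 1) to 311 (without GFP replicate 3). The count for a shared change was 0 under every alternative run. In ATAC, 2 windows were called, 104 (32 higher, 72 lower) with total counts only, 72 with DESeq2, and 0 to 5 when a library was left out, lowest without GFP replicate 1. Total counts only moved the median of all features to 0.10. With the replicate number as a block, 12 features and 2 windows were called and the pairing changed no call. Of 18 same-number correlations, 2 were over 0.1, both between GFP and LMNA. Under the alternatives run, the named features kept direction and call in 417 values, passed only under the alternative in 9 and lost the call in 6. The median tested feature had a mean of 20.6 counts per library, so depth limits small changes in features below it.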

Other observations

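A set of 36 interferon-stimulated genes was looked up after AC004551.2 and lnc-CH25H-2 had been seen, so its values are a description. Of these genes 14 had a tested small RNA feature, and 10 features were used for them, which include the 2 that prompted the search. These 10 are not all the tested intervals: a second lnc-CH25H-2 interval, from 89291966 to 89342635, overlaps the first and is not among them. Over the 10, median log2 fold changes were 0.80 in LMNB1, 0.56 in LMNA and −0.12 in LMNB2. Over all features the medians were −0.05 in LMNB1, −0.05 in LMNA and −0.04 in LMNB2. The lncRNA interval lnc-ADGRL4-6, over IFI44 and IFI44L, had 0.103, 0.0368 and 0.107 CPM in GFP, with 0.205, 0.152 and 0.111 for LMNA, 0.356, 0.441 and 0.435 for LMNB1 and 0.0784, 0.0768 and 0.0213 for LMNB2. LMNB1 was above all other libraries, LMNA above GFP, and LMNB2 replicates 1 and 2 lay within GFP. The interval over ISG20 (NONHSAG017802.2) was lower in sign in all 3 lamins, at −0.83 in LMNA, −0.19 in LMNB1 and −0.52 in LMNB2 (edgeR pooled −0.51 ± 0.24, unadjusted p = 0.0436, adjusted p = 0.503). The interval over HERC5 (lnc-HERC5-3) had log2 fold changes of −0.23 in LMNA, −0.05 in LMNB1 and −0.70 in LMNB2. None of these other features passed in the pooled contrast after adjustment.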
